A study of Mus musculus with 2 samples.

Results

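Hox genes encode homeodomain transcription factors that give cells their position along the body and limb axes, and they were read here across all 4 mouse clusters. The members were the probe sets whose platform annotation names exactly 1 gene with a symbol of the form Hox, a cluster letter from a to d and a paralogue number. This gave 48 of the 45101 probe sets on the array and 33 of 18193 genes named alone by a probe set. Hox genes that no probe set names alone are not analysed here.

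The tissue was interdigit from the hind limb at stage E13.5, mid-gestation, dissected as the regions the labels call ID2 and ID3 after natural mating. The Hammer toe group was homozygous for Hammer toe, a mouse mutation with webbed digits, and the wild-type group was B6. Each genotype is described as 15 embryos, taken as 3 litter sets of 5, but has 1 array of deposited values, and the link between the sets and the array is not given. B6 is named for wild type alone, so strain and Hammer toe genotype cannot be told apart.

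In the limb, Hox genes of the Hoxa and Hoxd clusters are switched on in the order in which they lie along the chromosome. An early phase serves the upper limb, and a later phase serves the hand and foot plate. In the later phase the genes at the 5′ end of the Hoxd cluster and Hoxa13 are active in digit-forming mesenchyme. Hoxa13 and Hoxd13 are both required for normal digits, and changes in HOXD13 cause fused and extra digits in humans. Loss of Hoxa13 in mice leaves digits joined by retained interdigital tissue. Genes of the Hoxb cluster act mainly in the trunk and in blood, and Hoxc genes of the hind limb take part in identity along the body axis.

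Values are MAS5 intensities, a summary of the short probes of a probe set on a linear scale that was adjusted to a common level on each array. Different probe sets respond differently, so intensities are set against each other only between the arrays and not between genes. Any intensity under 78.1, the median of all non-control values, was set to that floor, and log2 ratios are of Hammer toe over wild type. A gene was measured when its brighter array lay above the floor, and its ratio is a bound, written "at least", where the other array lay under it. Because each genotype had 1 array, no test was possible and no value has an error between samples. Probe sets of the same gene differed with an SD of 0.21 in log2 ratio (5134 genes), which leaves out the variation between embryos. Of 11621 measured genes, the median log2 ratio was 0.01.

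The tissue labels were set against limb genes. The hind limb factor Tbx4 read 2558 in Hammer toe and 2812 in wild type, and Pitx1, which specifies the hind limb, read 1228 in Hammer toe and 1423 in wild type. Both probe sets of Tbx5, the forelimb factor, lay under the floor on both arrays.

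Of the 33 Hox genes, 17 lay above the floor on both arrays, 3 on 1 array, and 13 on neither. Among the 20 measured genes, 14 were lower and 6 higher in Hammer toe, and 3 of the 20 entered through the array on which they were higher. Restricted to the 17 genes above the floor on both arrays, 12 were lower and 5 higher, where 48.5% of all such genes were lower and 51.5% higher. At 1.5-fold, 1 measured Hox gene was lower, where 1.39% of all measured genes were, and 0 were higher, where 2.17% were. At 2-fold there were 0 in either direction, where 0.112% of measured genes were lower and 0.258% higher. The median log2 ratio of the 17 genes was -0.06, against 0.01 for all genes above the floor on both arrays.

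**Figure D1:**
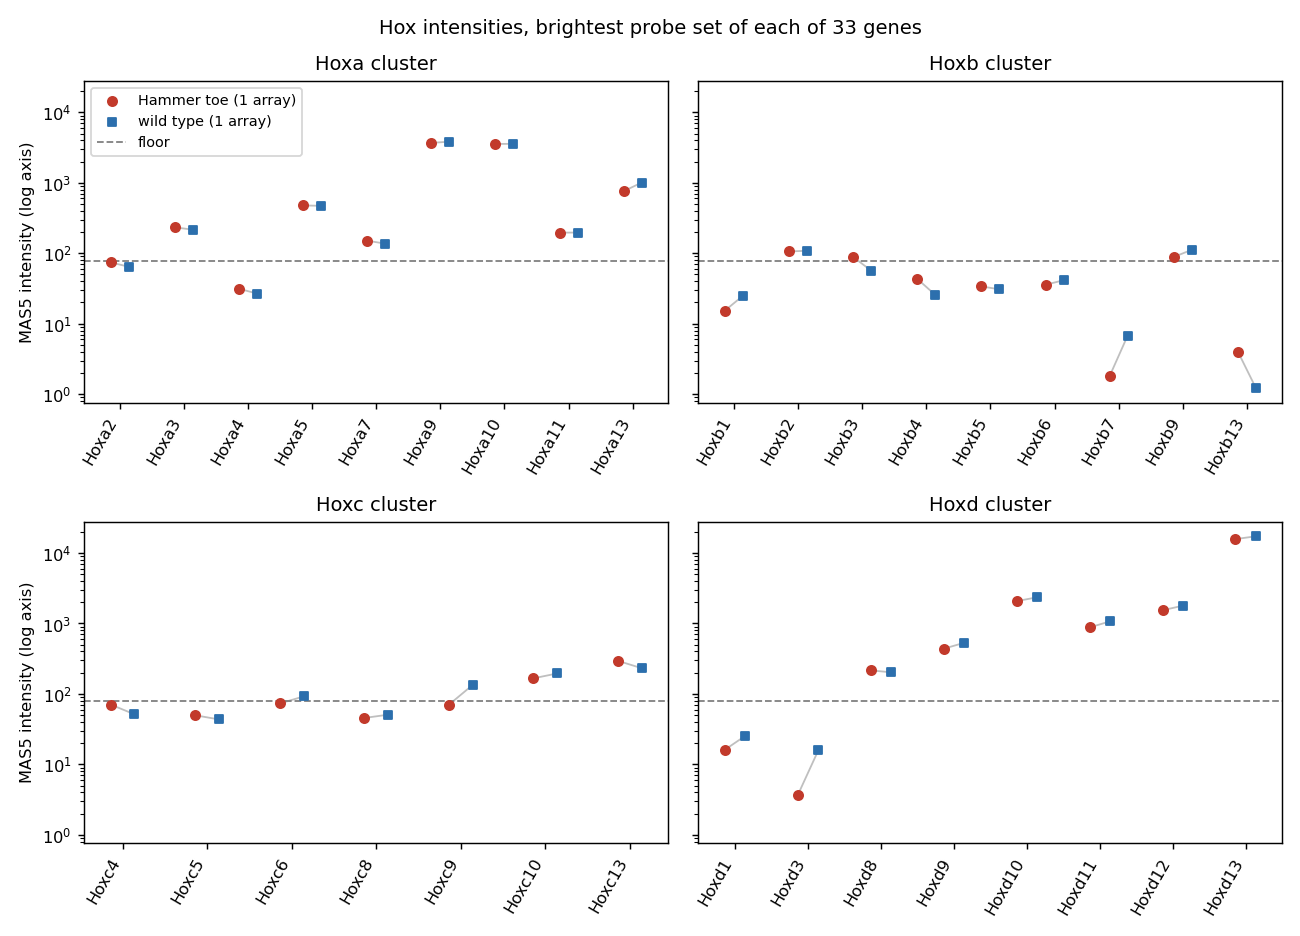
MAS5 intensity (log axis) of the brightest probe set of each of 33 Hox genes, by cluster and paralogue number, on the Hammer toe array (red circles) and the wild-type array (blue squares). The dashed line is the floor of 78.1; in the Hoxd cluster the points from Hoxd9 to Hoxd13 lie above it and are all slightly lower in Hammer toe, while most Hoxb points lie under it. Heights of different genes are not comparable.

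The Hox genes of the foot plate were lower in Hammer toe at every probe set. These are Hoxa13 and Hoxd10 to Hoxd13, which drive the outgrowth and patterning of digits. All 5 genes, read by 6 probe sets, were lower, by 1.10-fold to 1.33-fold on the brightest probe set, and their median log2 ratio was -0.22. None reached 1.5-fold. In dissected tissue, fewer cells of a type and less RNA per cell cannot be told apart.

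Hoxd13, the last gene of its cluster and a main regulator of digit form, read 15779 in Hammer toe and 17291 in wild type. That is a log2 ratio of -0.13, 1.10-fold lower. Its second probe set read 4302 in Hammer toe and 5254 in wild type, a log2 ratio of -0.29. Both readings of Hoxd13 were lower in Hammer toe, and they differed from each other by less than the SD between probe sets of a gene.

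Hoxd12, which acts with Hoxd13 in the digits, read 1540 in Hammer toe and 1789 in wild type, a log2 ratio of -0.22. Hoxd11, which patterns both the forearm and the digits, read 878 in Hammer toe and 1072 in wild type, a log2 ratio of -0.29. Hoxd10, the fourth of the digit genes in the cluster, read 2076 in Hammer toe and 2351 in wild type, a log2 ratio of -0.18. The wild-type array was the higher in each of these 3 genes, each read by a single probe set.

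Hoxa13, the Hoxa gene of the foot plate, read 761 in Hammer toe and 1009 in wild type, 1.33-fold lower at a log2 ratio of -0.41. It was the foot plate gene furthest from wild type. Among 4694 genes whose brighter array read above 1000, 95% lay within 1.24-fold, and Hoxa13 lay outside that range. Its ratio was at or above that of 1.21% of those genes. Hoxd11 was at or above 2.71%, Hoxd12 5.82%, Hoxd10 8.90% and Hoxd13 14.9%, and these 4 genes lay inside the range. Hoxa13 was in this band only through its wild-type reading of 1009, just past the edge. Among genes whose brighter array read 200 to 1000, 95% lay within 1.45-fold, a range that would hold Hoxa13.

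General genes of limb mesenchyme stood on the same side as the foot plate Hox genes. In a list of 7 limb mesenchyme genes, 6 were lower in Hammer toe, with a median log2 ratio of -0.17. The summed intensity of that list was 46190 in Hammer toe and 51587 in wild type. In this and the later sums the brightest probe sets weigh most, so a sum does not speak for each gene of its list. Prrx1, a homeobox gene of limb mesenchyme, read 11651 in Hammer toe and 12614 in wild type, and Msx2 was the exception, at a log2 ratio of 0.05. The median log2 ratio of the foot plate Hox genes minus that of the mesenchyme list was -0.05 on the brightest probe sets. With averaged probe sets, the mesenchyme median was -0.10 and the foot plate median stayed at -0.22. Of the foot plate genes only Hoxd13 has a second probe set, so averaging could change no other gene of that list. The second probe set of Msx1 stood at 0.04, while the other probe sets of Prrx1, Tbx4 and Pitx1 above the floor were lower. The part of tissue makeup in the foot plate Hox values was not tested.

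Because these genes were lower together, the 250 bases before their RefSeq starts are shown (build GRCm38.p6, each written 5′ to 3′ on the strand of the gene). Hoxd13 is at chr2:74667975-74668224 on the plus strand, Hoxd12 at chr2:74674763-74675012 plus, and Hoxd10 at chr2:74691641-74691890 plus. Hoxd11 has 2 RefSeq starts, and the one shown is at chr2:74682073-74682322 plus. Hoxa13 is at chr6:52260881-52261130 on the minus strand. Capitals mark matches, on either strand, to the CCAAT box, to the TATA box (TATAAA) and to the patterns AATAAA and TGATTNAT.

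Hoxd13: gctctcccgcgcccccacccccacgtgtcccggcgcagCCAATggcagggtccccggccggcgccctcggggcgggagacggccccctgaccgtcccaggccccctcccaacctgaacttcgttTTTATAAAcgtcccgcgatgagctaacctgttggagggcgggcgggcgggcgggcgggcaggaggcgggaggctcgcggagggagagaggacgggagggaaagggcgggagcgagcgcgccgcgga

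Hoxd12: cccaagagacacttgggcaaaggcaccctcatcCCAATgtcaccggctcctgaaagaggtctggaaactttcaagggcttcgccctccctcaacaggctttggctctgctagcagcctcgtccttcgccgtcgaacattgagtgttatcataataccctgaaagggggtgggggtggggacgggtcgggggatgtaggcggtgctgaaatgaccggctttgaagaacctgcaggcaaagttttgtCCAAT

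Hoxd11: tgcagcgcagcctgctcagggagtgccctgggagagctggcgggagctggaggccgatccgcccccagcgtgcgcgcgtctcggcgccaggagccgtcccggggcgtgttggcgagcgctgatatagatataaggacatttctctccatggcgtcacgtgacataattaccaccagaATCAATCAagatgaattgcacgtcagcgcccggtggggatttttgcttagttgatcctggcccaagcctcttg

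Hoxd10: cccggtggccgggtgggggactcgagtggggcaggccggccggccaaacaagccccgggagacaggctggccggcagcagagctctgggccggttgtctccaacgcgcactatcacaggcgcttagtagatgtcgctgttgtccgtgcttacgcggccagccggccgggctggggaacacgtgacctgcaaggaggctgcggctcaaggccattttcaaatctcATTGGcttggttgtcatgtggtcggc

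Hoxa13: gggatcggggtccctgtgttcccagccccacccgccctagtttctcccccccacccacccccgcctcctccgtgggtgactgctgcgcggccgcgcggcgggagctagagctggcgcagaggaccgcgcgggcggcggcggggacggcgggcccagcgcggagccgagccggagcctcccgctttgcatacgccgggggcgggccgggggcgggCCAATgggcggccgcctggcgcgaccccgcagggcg

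A CCAAT box, a short element bound by general activators near many starts, was present in the window of Hoxd13, Hoxd12, Hoxd10 and Hoxa13, and not in either window of Hoxd11. It occurred in 11 of 21 Hox windows, 52.4%, and in 33.8% of all 32851 windows of this length. The 21 windows belong to the 19 Hox genes found in the set of RefSeq starts used here. Of the Hoxb and Hoxc genes, that set held only Hoxb1, Hoxb4 and Hoxc4. TATAAA was found in the window of Hoxd13, where a match on each strand overlaps the other, and in 2 of the 21 Hox windows, against 12.4% of all windows. TGATTNAT, a letter pattern bound by Hox and Pbx proteins together, occurred in a window of Hoxd11 and in 2 of 21 Hox windows, against 2.82% of all. AATAAA occurred in 3 of 21, against 18.1% of all, and TGACAG, a Meis pattern, in 2 of 21, against 15.9%.

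The GC box GGGCGG, which can overlap itself and the CCAAT box, occurred in 8 of 21 Hox windows, against 32.7% of all. Neither CGTAAA nor GACCACCCA, a Gli pattern, was in any of the 21 windows, and they occurred in 2.61% and 0.225% of all windows. These counts describe letters only. The Hox windows were rich in CG pairs, with a median of 13 per window against 6 over all windows. The windows shown held 31 in Hoxd13, 10 in Hoxd12, 20 in Hoxd11, 20 in Hoxd10 and 35 in Hoxa13. The window of Hoxd11 that is not shown held 2.

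**Figure D2:**
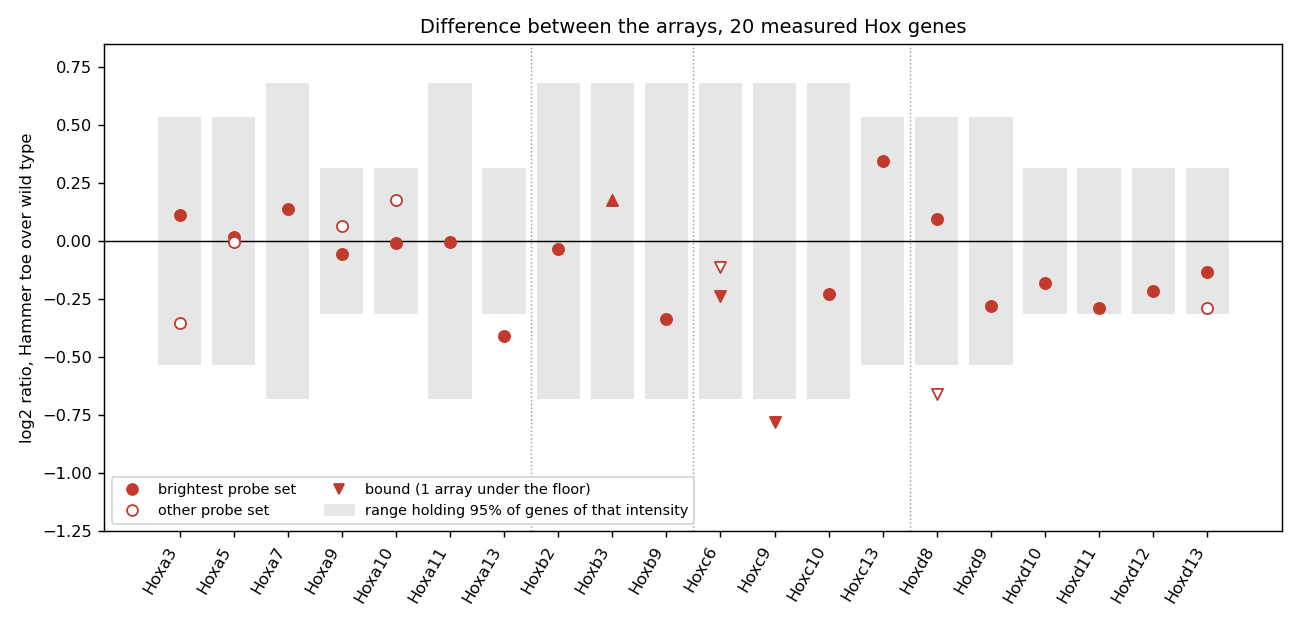
Log2 ratio of Hammer toe over wild type for each measured probe set of 20 Hox genes, ordered by cluster and paralogue number, with 1 array per genotype. Filled points are the brightest probe set, open points others, and triangles bounds. The grey bars span the range that holds 95% of all genes of that intensity. Hoxa13 and Hoxc9 lie outside their bars, and Hoxd9 to Hoxd13 lie under 0 but inside theirs. Hoxa13 takes the bar for readings above 1000 only through its wild-type array, just past that edge.

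Hox genes of the upper and middle limb formed a second list. Of its 7 genes, 5 were measured, 1 higher and 4 lower, with a median log2 ratio of -0.01. Hoxa10, which patterns the thigh, read 3564 in Hammer toe and 3578 in wild type, and Hoxa11, which patterns the shank, read 196 in Hammer toe and 197 in wild type. Hoxa9, which acts early in the limb bud, read 3693 in Hammer toe and 3839 in wild type. The 3 genes were nearly level between the arrays, with log2 ratios of -0.01, 0.00 and -0.06. Other probe sets of Hoxa9 and Hoxa10 stood at 0.07 and 0.18. The signs of Hoxa9 and Hoxa10 therefore depended on the probe set, and Hoxa9 was at 0.01 when its probe sets were averaged.

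In the same list, 2 members come from the middle of the Hoxd cluster. Hoxd9, which acts in the upper limb, read 438 in Hammer toe and 531 in wild type, a log2 ratio of -0.28. Hoxd8 read 216 in Hammer toe and 202 in wild type on its brightest probe set, a log2 ratio of 0.10. Its other probe set, of a type that can bind related transcripts, read 52.8 in Hammer toe, under the floor, and 123 in wild type, at least 1.58-fold lower. The probe sets of Hoxd8 thus stood on opposite sides of wild type, and their mean gave a log2 ratio of -0.28.

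Along the Hoxd cluster, the genes from Hoxd13 to Hoxd9 were each lower in Hammer toe, at log2 ratios from -0.29 to -0.13 on their brightest probe sets, and Hoxd8 had no settled direction. Hoxd3 and Hoxd1 lay under the floor on both arrays. In the Hoxa cluster, Hoxa13 stood at -0.41, and Hoxa9 to Hoxa11 had log2 ratios between -0.06 and 0.00. The Hoxd median was -0.20 over 6 measured genes, 5 of them lower, and the Hoxa median was 0.00 over 7, with 4 lower and 3 higher.

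The remaining Hoxa genes are known from the trunk, brainstem and lung. Hoxa5, which acts in lung and rib patterning, read 478 in Hammer toe and 472 in wild type, with its probe sets at log2 ratios of 0.02 and -0.01. Hoxa7, a gene of trunk patterning, read 151 in Hammer toe and 137 in wild type, a log2 ratio of 0.14. Hoxa3, which acts in the pharynx, read 234 in Hammer toe and 216 in wild type on its brightest probe set. That probe set is of a type that can bind related transcripts. The next probe set of Hoxa3 read 97.0 in Hammer toe and 124 in wild type. The log2 ratios were thus 0.11 and -0.35 and gave no settled direction. Hoxa2 and Hoxa4 lay under the floor on both arrays.

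Hoxc genes, which include axial and hind limb factors, held the single member past 1.5-fold. Hoxc9, a trunk gene that in the chick helps to limit where the forelimb forms, read 70.1 in Hammer toe, under the floor, and 134 in wild type, at least 1.72-fold lower. It rested on a single probe set near the floor and entered through the wild-type array. There were 2070 genes with at most 200 on both arrays, and a range of 1.60-fold held 95% of them but not Hoxc9. With a pseudocount in place of the floor its log2 ratio was -0.52, under the 1.5-fold size.

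Hoxc10, which is expressed in the hind limb and not the forelimb, read 166 in Hammer toe and 195 in wild type, a log2 ratio of -0.23. Hoxc6, which marks the level of the forelimb, read 73.1 in Hammer toe, under the floor, and 91.9 in wild type, at least 1.18-fold lower. That reading came from a probe set of a type that can bind related transcripts. A second probe set of Hoxc6 gave a bound of -0.11 on the log2 scale, and the third lay under the floor on both arrays. The 3 lower Hoxc genes read at most 195 on either array.

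Hoxc13, a factor of nail and hair epithelium as well as of the tail, was the Hox gene furthest above wild type. It read 294 in Hammer toe and 232 in wild type, 1.27-fold higher at a log2 ratio of 0.35. This lay inside the range that held 95% of genes between 200 and 1000, a log2 ratio of 0.53 in size. At a log2 ratio of 0.32 or more in size, Hoxc13 was the 1 higher Hox gene, where 8.47% of measured genes were higher, and Hoxa13, Hoxb9 and Hoxc9 were the 3 lower, where 6.33% were.

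Markers of surface ectoderm moved in the same direction as Hoxc13. Of 7 such genes 6 were higher in Hammer toe on the brightest probe set, with a median log2 ratio of 0.49. Their summed intensity was 12573 in Hammer toe and 9828 in wild type. All 7 lay above the floor on both arrays. The sign depended on the probe set for Epcam, at 0.57 and -0.71, and for Krt14, at -0.05 and 0.40. The part of surface ectoderm in the Hoxc13 value was not tested.

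Hoxb genes read low in this tissue. Of 9 genes 3 were measured and 6 lay under the floor on both arrays (Hoxb1, Hoxb4, Hoxb5, Hoxb6, Hoxb7 and Hoxb13). Hoxb9, a trunk gene, read 88.7 in Hammer toe and 112 in wild type, a log2 ratio of -0.34. Hoxb2, which acts in the hindbrain, read 106 in Hammer toe and 109 in wild type. Hoxb3, which acts in the hindbrain and pharynx, read 88.4 in Hammer toe and 56.6 in wild type, under the floor, at least 1.13-fold higher. All 3 read at most 112 on either array, close to the floor.

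The 13 genes under the floor on both arrays, which also include Hoxc4, Hoxc5 and Hoxc8, read 1.81 to 74.1 in Hammer toe and 1.22 to 64.3 in wild type. Such readings were taken as noise, which does not show that the transcripts were absent. The 3 probe sets that name a pair of Hox genes also lay under the floor. The probe set shared by Hoxb7 and Hoxb8 read 56.3 in Hammer toe and 48.7 in wild type. Those shared by Hoxd3 and Hoxd4 read 16.7 and 58.6 in Hammer toe, against 51.0 and 19.9 in wild type.

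By paralogue number the measured genes were unevenly spread. Of 14 genes of groups 9 to 13, 13 were measured, 12 lower and 1 higher in Hammer toe, with a median log2 ratio of -0.22. Hoxc9 is among these 13 through the wild-type array alone. Restricted to the 12 above the floor on both arrays, 11 were lower and 1 higher, with a median of -0.20. Of all genes above the floor on both arrays, 48.5% were lower. Of 12 genes of groups 4 to 8, 4 were measured, 3 higher and 1 lower, with a median of 0.06. Of 7 genes of groups 1 to 3, 3 were measured, 2 higher and 1 lower, with a median of 0.11. The median of groups 1 to 3 was -0.03 without a floor, with averaged probe sets or without suffixed probe sets, and that of groups 4 to 8 was -0.08 with averaged probe sets, so neither had a settled direction. The signs of Hoxa3 and Hoxd8, given above as unsettled, are part of the counts for the lower groups, and those of Hoxa9 and Hoxa10 are part of the count for groups 9 to 13.

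**Figure D3:**
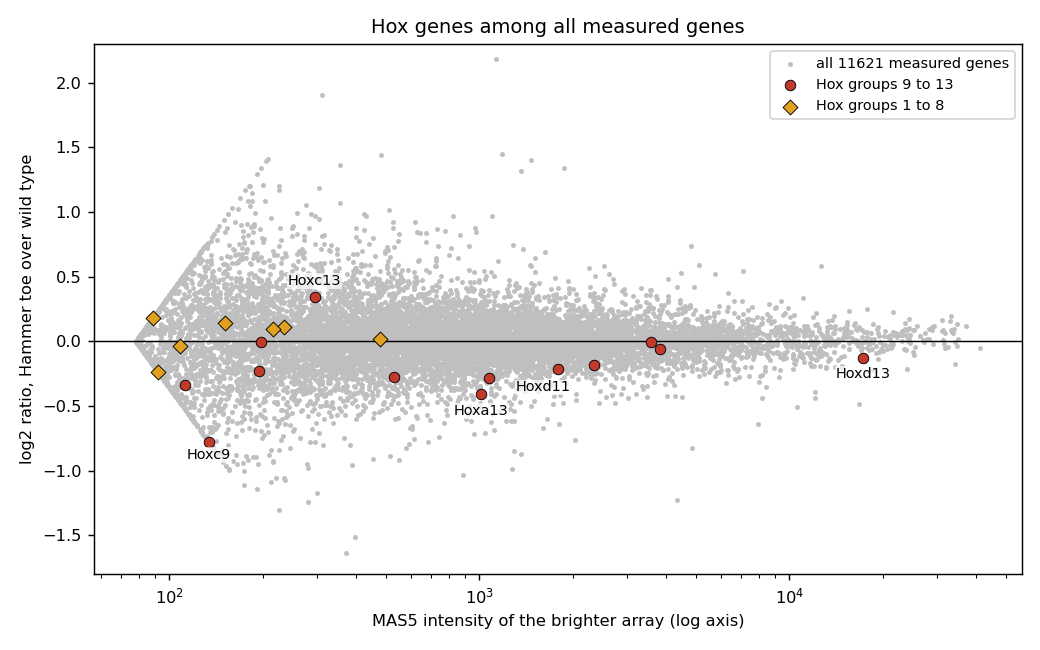
Log2 ratio of Hammer toe over wild type against the intensity of the brighter array (log axis) for 11621 measured genes (grey), with Hox genes of groups 9 to 13 (red circles) and 1 to 8 (yellow diamonds). The Hox genes lie within the cloud of all genes; Hoxa13 is at the lower edge above an intensity of 1000, and Hoxc9 lies on the line set by the floor.

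Genes that lie inside or beside the clusters did not follow a single direction. Of 20 listed genes 12 were measured, 6 higher and 6 lower, with a median of 0.01 and 0 past 1.5-fold. Near Hoxd13, Lnpk, which shares digit enhancers with the Hoxd genes, read 2274 in Hammer toe and 2763 in wild type, a log2 ratio of -0.28. Its other probe sets stood at -0.79 and -0.10. Evx2, the homeobox gene next to Hoxd13, read 120 in Hammer toe and 89.9 in wild type, a log2 ratio of 0.41, while Mtx2 at the other end of the cluster was at 0.00.

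Near Hoxa13, the homeobox gene Evx1 read 112 in Hammer toe and 152 in wild type, a log2 ratio of -0.44. On the brightest probe sets, Evx1 and Evx2 were the members of this list furthest from wild type, in opposite directions and at low intensity. The antisense transcript Hoxa11os, which overlaps Hoxa11, read 1889 in Hammer toe and 2294 in wild type, a log2 ratio of -0.28, where Hoxa11 itself was level.

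Partners of Hox proteins were read next. Cofactors of the TALE homeodomain family, which bind DNA together with Hox proteins, had 6 of 9 listed genes measured, 4 higher and 2 lower, with a median of 0.11. On the brightest probe sets, the members furthest from wild type were Pknox2, which read 103 in Hammer toe and 88.0 in wild type, and Pbx2, which read 3701 in Hammer toe and 4090 in wild type. Meis2, a marker of the upper limb, gave 0.11 by its brightest probe set, and 0.41 and 0.59 by the others above the floor. The sign depended on the probe set for Pbx3, at 0.11 and -0.01, and for Pknox1, at 0.11, 0.06 and -0.12. With averaged probe sets the median of the cofactor list was 0.03.

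Chromatin regulators of the Polycomb and Trithorax groups, which keep Hox genes silent or active, had 23 of 24 listed genes measured, 10 higher and 13 lower, with a median of -0.09. The member past 1.5-fold was Pcgf2, a Polycomb subunit, which read 232 in Hammer toe and 148 in wild type. Its second probe set stood at a log2 ratio of 0.21. Ezh2, the Polycomb methyltransferase, was at -0.09.

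Genes placed downstream of Hoxa13 or Hoxd13 in limb studies were mostly lower. Of 16 listed genes 11 were measured, 8 lower and 3 higher, with a median of -0.19. Restricted to the 10 above the floor on both arrays, 8 were lower and 2 higher, where 48.5% of all such genes were lower. The limb mesenchyme list, which shares Aldh1a2 with this list, had a median of -0.17. A link between this list and the Hox values was not tested. Bmp2, a signal of interdigital regression, read 2721 in Hammer toe and 3100 in wild type. Bmp7, a related signal, gave -0.17 by its brightest probe set, and 0.09 and -0.03 by the others.

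Further members of this list are patterning and guidance genes. Epha4, an ephrin receptor of limb mesenchyme, read 2155 in Hammer toe and 2863 in wild type, a log2 ratio of -0.41, and its other 4 probe sets were also lower. Epha7, a related receptor whose gene Hoxa13 is known to regulate, gave -0.16 by its brightest probe set, and 0.09 and 0.43 by others. Hand2 stood at -0.47. Shh, at least 2.45-fold higher, was the member past 1.5-fold, and its second probe set lay under the floor on both arrays.

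**Figure D4:**
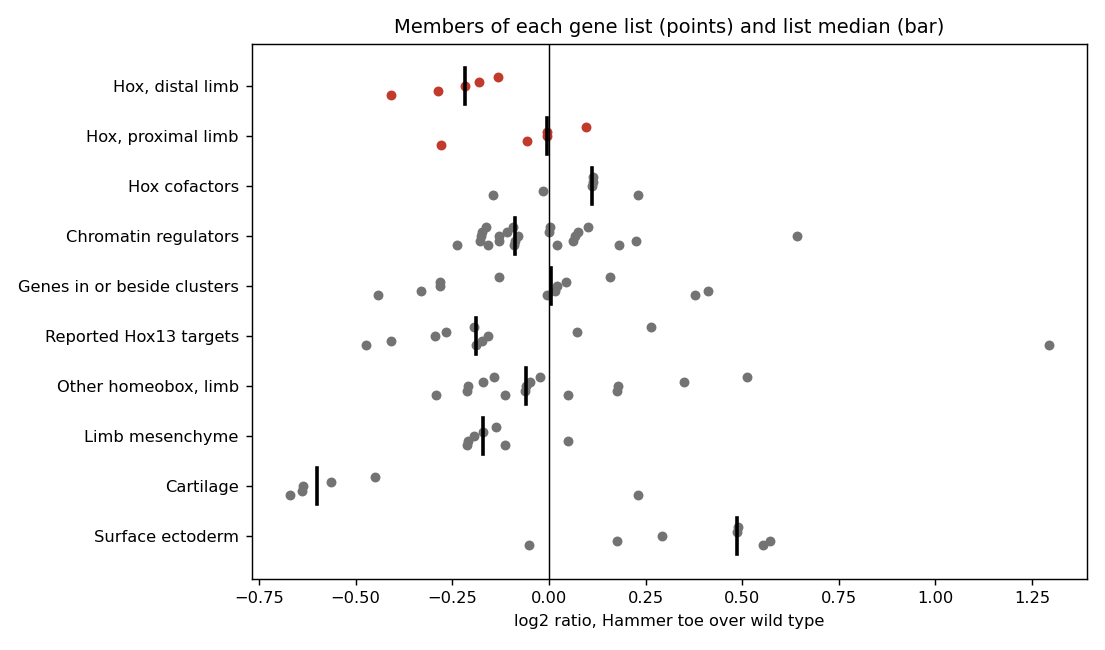
Log2 ratio of Hammer toe over wild type for the measured members of each gene list (points, brightest probe set) and the median of the list (black bar), with 1 array per genotype. The foot plate Hox genes (distal limb) all lie under 0 with a median of -0.22. On these probe sets the limb mesenchyme list has a median of -0.17, while the proximal Hox genes centre on -0.01.

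Markers of other cell types also differed between the samples. Of 6 cartilage genes 5 were lower, at a median of -0.60 and a summed intensity of 8122 in Hammer toe and 12633 in wild type. The cartilage gene Matn1 lay under the floor in Hammer toe. Hox genes of the foot plate are also expressed in digit condensations, and the part of cartilage in their values was not tested. Macrophage genes were higher in 5 of 6 (median 0.46), muscle genes in 4 of 5 (0.44) and endothelial genes in 3 of 5 (0.02). Of 3 measured nerve and Schwann genes 2 were higher and Sox10 lay at the floor (0.04), and all 4 measured erythroid genes were lower (-0.40).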

How the data were processed

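Biotinylated cRNA was made from 250 ng of total RNA isolated on RNeasy columns, per the labels' protocols. The deposited values are linear intensities, 1 for each probe set on each array. Per the submitters' processing notes, the authors used MAS5 and Affymetrix Expression Console; versions are not given in the sources used here. Both arrays had a mean of 500 with 2% trimmed at each end, so a shift of most transcripts in 1 direction would not show. Detection calls were not used. Median intensities were 78.3 in Hammer toe and 77.8 in wild type without control probe sets, and the number of arrays limits the precision.

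Symbols came from the platform annotation, updated through the gene ID to RefSeq (GRCm38.p6). Each gene was read from its brightest probe set by mean of the arrays, and genes were called by size alone, at 1.5-fold, since no test is possible between single arrays. Gene ratios were computed with Python 3.11.15 and pandas 2.3.3, and the script was tested on simulated data. The members, lists, floor and sizes were chosen with earlier results of these data known. The text names every measured Hox gene, and from each other list the members past 1.5-fold or the 2 furthest from wild type; further examples were chosen after their values were seen, and lists of cell type markers are given by counts. Alternatives were 3 other floor settings, a pseudocount, median centring, quantile normalization, lowess (span 0.3), averaging a gene's measured probe sets, dropping those with suffix _x_at, _s_at or _a_at, and other sizes of difference.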

Additional observations from a re-analysis of the deposited data

How the results depend on the processing

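No paired analysis was possible because each genotype has 1 array. A value counted as moved when it shifted by more than 0.21 on the log2 scale, the SD between probe sets of a gene. Hoxa13 and Hoxd9 to Hoxd13 were lower in Hammer toe in all 9 alternatives that gave them a ratio, with Hoxa13 between -0.41 and -0.37 and Hoxd13 between -0.21 and -0.13. Hoxa13, Hoxd10, Hoxd11 and Hoxd12 each have 1 probe set, unsuffixed and above every floor used. Other floors, averaging and dropping suffixed probe sets therefore could not change these genes. Hoxd9 also has 1 probe set, unsuffixed, and its log2 ratio of -0.09 with the floor at the 75th percentile is a bound. A pseudocount cannot change the sign of a ratio, so most of the alternatives could not have turned these genes. All alternatives reused the same arrays, so they say nothing about variation between embryos. The count of Hox genes past 1.5-fold depended on the floor. Without a floor 5 of 33 Hox genes were lower and 3 higher, and a 25th percentile floor gave 1 lower and 2 higher of 30. A pseudocount left 0 of 20 lower, where 0.697% of all measured genes were. Only 8 Hox genes were measured under a 75th percentile floor, and 0 were lower, where 0.299% of all measured genes were. Hoxc9 lay under that floor on both arrays, so this count could not include it. For the floor of 78.1, 3 Hox genes were lower and 1 higher past a log2 ratio of 0.32 in size, and at 2-fold 0 were lower. Without a floor, 12.6% of all genes were lower by 1.5-fold and 12.99% higher, against 6.89% lower and 7.48% higher at the 25th percentile floor. Among the cell type lists, the floor at the 75th percentile moved the medians of macrophage, muscle and endothelial genes to 0.13, 0.72 and 0.28, with only 2, 1 and 2 genes left, and leaving out the suffixed probe sets moved muscle to 0.71. The median of the 3 nerve genes was 0.67 without a floor or with the floor at the 25th percentile and 0.46 with a pseudocount. Over the 2 still measured, without Sox10, it was 0.36 with median centring, 0.34 with quantile normalization and 0.35 with lowess. Low intensity limits the Hoxb and Hoxc values most.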

Other observations

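Homeobox genes of the limb outside the Hox clusters were mixed. Of 20 listed genes 15 were measured, 5 higher and 10 lower in Hammer toe, with a median log2 ratio of -0.06 and 0 past 1.5-fold on the brightest probe set. Shox2, which acts in the upper limb, read 391.6 in Hammer toe and 274 in wild type, a log2 ratio of 0.51, and its second probe set lay under the floor on both arrays. Irx5, a factor of early limb patterning, read 2314 in Hammer toe and 1815 in wild type, a log2 ratio of 0.35. Lhx9, a mesenchymal factor of limb outgrowth, read 5467 in Hammer toe and 6689 in wild type. All 4 probe sets of Lhx9 were lower, at log2 ratios from -0.61 to -0.29.

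The antisense transcript Evx1os lies between Hoxa13 and Evx1 and was chosen after its value was seen. It read 86.9 in Hammer toe and 174 in wild type, near the floor and on the same side as Evx1.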
